A study of Drosophila melanogaster with 30 samples.

Results

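The experiment set brains of young adult males in which RNA interference (RNAi) targeted EcR-A, an isoform of the ecdysone receptor, against brains of control males. It comprised 4 of the series' 30 arrays. The RNAi males were labelled fru P1-GAL4; uas-EcRA RNAi, and the controls fru P1-GAL4; +, so both groups carried the fru P1-GAL4 driver and the controls lacked the RNAi construct. All flies were males collected as 0-24 h adults and aged at a common temperature, and each RNA came from about 20 dissected brains, so a sample is a pool of animals. The labels name brain as the tissue, while the array titles name the central nervous system (CNS). Each array held 1 RNAi and 1 control sample, labelled with the dyes Cy5 and Cy3. The RNAi sample was in Cy5 on replicates 1 and 2 and in Cy3 on replicates 3 and 4. The design text of the series describes the samples as biologically independent.

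The ecdysone receptor is a nuclear receptor that binds the moulting hormone ecdysone as a dimer with Ultraspiracle and switches target genes on or off through moulting and metamorphosis. Its isoforms share the DNA-binding and hormone-binding domains and differ at the amino terminus. The P1 promoter of fruitless (fru) yields transcripts that are spliced sex-specifically and encode the male-specific transcription factor FRUM, which specifies the neurons for male courtship. In the GAL4/UAS system, the yeast activator GAL4, expressed here under fru P1, drives the construct placed behind the UAS element. RNAi was thus directed to cells that use fru P1, a subset of the brain, whereas the RNA came from the whole brain, and in such bulk samples fewer cells of a type and less RNA per cell cannot be told apart.

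The deposited table gave 1 value per probe and array, in the form of log2 ratios of the 2 channels. A probe was included if it was measured on 3 or 4 of the adult arrays and in both dye orientations, and 5992 of 15744 probes met this. Of these, 5285 had a value on all 4 arrays and 707 on 3. Just outside the rule lay 926 probes with a value on 2 arrays. The median absolute log2 ratio was 0.353 among probes with 3 values and 0.479 among those with 2, against 0.314 among those with 4. Probes carry plate positions as IDs, and no table used here pairs them with genes. The level of EcR, the markers of brain tissue and the genes of the ecdysone response could therefore not be looked up, and results are given by probe.

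The 4 arrays gave values for 7352, 5834, 6966 and 5877 probes, with standard deviations (SD) over probes of 0.689, 0.468, 0.525 and 0.477 log2 units on replicates 1 to 4. Replicate 1 was the widest and stood apart in a further way. Among the 5992 probes it had 358 values above 1 and 202 below -1, while replicate 2, in the same dye orientation, had 24 above and 159 below. Replicates 3 and 4 had 160 and 181 values above 1, and 6 and 27 below -1. Another 14 arrays covered 3 CNS experiments: EcR-A RNAi at 0 h after puparium formation, fru P1 mutants against wild type, and females against males. The fru and sex experiments used pupae at 48 h after puparium formation, the sex experiment wild-type ones. Values below -1 outnumbered those above 1 on all 7 of these arrays with the RNAi, mutant or female sample in Cy5. The reverse held on all 7 with that sample in Cy3. Replicate 1 was the only 1 of these 18 arrays that went the other way.

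Which channel was divided by which in the deposited ratios is not stated, and this decides what can be read from the experiment. If the ratios had been turned to 1 direction before deposit, the RNAi effect is the mean of both dye orientations, and the half-difference between orientations holds probe-specific dye bias. If they ran Cy5 over Cy3, the half-difference (0.5 times the difference of the mean with RNAi in Cy5 minus the mean with RNAi in Cy3) is the RNAi effect, and the orientation mean holds the dye bias, which keeps its sign when the dyes are swapped. Both quantities were estimated for every probe in 1 limma fit. Signs are those of the deposited ratios, and a positive value does not by itself mean more RNA in RNAi brains.

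Arrays of the same dye orientation ran together and arrays of opposite orientation ran against each other. Across probes, replicates 1 and 2 correlated with Pearson's r = 0.488, and replicates 3 and 4 with r = 0.453. The 4 pairs of opposite orientation had r between -0.643 and -0.453. The same held against other experiments that share no sample with this one. The adult arrays correlated with sex arrays of like orientation at r between 0.202 and 0.476 and with those of opposite orientation at r between -0.475 and -0.314. Against fru arrays r lay between 0.159 and 0.514 for like and between -0.475 and -0.121 for opposite orientation. Against the RNAi arrays at 0 h it lay between 0.207 and 0.632 for like orientation, and 7 of 8 pairs of opposite orientation were below 0, the exception being at 0.106. These correlations are across probes, which share the array layout and the dyes and are not independent replicates.

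The signs on single probes gave the same picture. Of the 5285 probes with 4 values, 2508 (47.5%) had signs that followed the dye orientation, 1336 of them positive with RNAi in Cy5 and 1172 negative. Only 143 (2.71%) had the same sign on all 4 arrays, 43 positive and 100 negative. The contrast was sharper among probes farther from 0. Of the 821 probes beyond 0.3 log2 units on every array, 699 followed the orientation and 2 kept 1 sign. Among the 211 probes beyond 0.5 log2 units on every array, 191 followed the orientation, 20 did neither and 0 kept 1 sign. Beyond 1 log2 unit, 5 of 6 followed it and 0 kept 1 sign. The median gap between the 2 orientation means of a probe was 0.537 log2 units. The median SD within an orientation was 0.203 for replicates 1 and 2 and 0.21 for replicates 3 and 4, so the gap was typically larger than the spread between replicates.

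The orientation mean, the RNAi effect if the ratios had been turned, was small for nearly all probes. Its median size was 0.0925 log2 units, and 10 probes exceeded 1 log2 unit. With a median standard error (SE) of 0.143, the 95% confidence interval of the mean had a median half-width of 0.309 log2 units and lay within 1 log2 unit of 0 for 5903 probes (98.5%). These intervals come from a fit with a dye coefficient and do not measure the gap between orientations. Of 5992 probes tested with limma, 3 passed an adjusted p (Benjamini-Hochberg) of 0.05, which is 0.0501% of them, all with a positive mean. None passed with a negative mean, where 82 probes had an unadjusted p under 0.05 (145 on the positive side).

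Probe DAC011C23 had log2 ratios of 4.34 on replicate 1, 0.50 on replicate 3 and 0.17 on replicate 4, giving a mean of 2.34 ± 0.148 (SE, n = 3 arrays, limma adjusted p = 0.00151). DAC002K24 had 4.36, 0.81 and 1.07 on the same arrays, with a mean of 2.65 ± 0.208 (SE, n = 3, limma adjusted p = 0.0124). DAC002J17 had 2.29, 1.02 and 1.11, with a mean of 1.68 ± 0.182 (SE, n = 3, limma adjusted p = 0.0135). All 3 were positive on every array that measured them, none had a value on replicate 2, and each was highest on replicate 1. That array is then alone in its dye orientation and is fitted exactly, so the SE does not hold its distance from the others. The half-difference of the same probes was 2.00, 1.71 and 0.61 log2 units, so they also differed between orientations.

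Each of these calls was lost in some of the other fits that could test it: DAC011C23 in 2, DAC002K24 in 3 and DAC002J17 in 5. With the 8 RNAi arrays fitted together the limma adjusted p of DAC011C23, DAC002K24 and DAC002J17 was 0.0599, 0.0593 and 0.222, and without a dye coefficient it was 1 for each. With arrays centred and scaled it was 0.0871 for DAC002K24 and 0.27 for DAC002J17. DAC002J17 also missed the threshold with quantile normalization (limma adjusted p = 0.194) and with the 4 adult arrays alone (0.0877). The 260 probes without a value on replicate 2 held all 3 calls, and the 5285 probes with 4 values held 0, with 167 at an unadjusted p under 0.05 by limma when they were tested alone. The count was 22 without replicate 2, with these 3 among them. It was 0 in limma without replicate 3 or 4, with 159 and 445 probes at an unadjusted p under 0.05, and 3 other probes without replicate 1, but in these fits DAC011C23, DAC002K24 and DAC002J17 had too few values to be tested.

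The same probes were looked up in the other CNS experiments. At 0 h DAC002K24 had -0.34 and 0.52 with RNAi in Cy5 and 3.54 on the only array with RNAi in Cy3 that measured it. DAC002J17 had 0.03 and 0.84, and 3.61 on that same array. The highest value of both probes thus came with RNAi in Cy5 in adults and with RNAi in Cy3 at 0 h, each time on an array alone in its orientation. DAC011C23 had no value at 0 h or in the sex experiment, and in the fru experiment its half-difference was -0.43, opposite in sign to that in adults. That value also rests on an array alone in its orientation, at 0.56 against -0.31, -0.36 and -0.20 in the other.

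Probes with 1 sign on all 4 arrays were ranked, within each sign, by their value closest to 0. DAC028G03 led the negative ones: it had log2 ratios of -0.86, -0.67, -0.37 and -0.36 on replicates 1 to 4, a mean of -0.57 ± 0.123 (SE, n = 4, limma adjusted p = 0.312). DAC026O16 had -0.83, -0.50, -0.40 and -0.36, with a mean of -0.52 ± 0.157 (SE, n = 4, limma adjusted p = 0.998). DAC021C01 had -0.55, -0.43, -0.32 and -0.30, with a mean of -0.40 ± 0.107 (SE, n = 4, limma adjusted p = 0.996). None of these passed, although the 4 arrays of each agree in sign. DAC020O06 and DAC028G05, the next on this side, had means of -0.37 and -0.24. On the positive side DAC016D09 led, with values further apart from each other: 1.19, 0.28, 0.23 and 0.62, and a mean of 0.58 ± 0.274 (SE, n = 4, limma adjusted p = 0.998). This SE also draws on the other experiments in the fit, where 0 h replicates 3 and 4 stood at -0.21 and 2.34. The means of DAC024K07, DAC024B17, DAC005N16 and DAC015I09 were 0.21, 0.39, 0.42 and 0.35, each with a limma adjusted p of 0.998.

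The half-difference between orientations passed for 1836 of 5992 probes (30.6%), 917 positive and 919 negative, with a median size of 0.547 log2 units among calls and 0.273 among all probes. Large ones lay mostly on 1 side: of 110 probes beyond 1 log2 unit, 99 were negative and 11 positive. Reading the ratios as Cy5 over Cy3, negative means less signal from RNAi than from control brains. Reading them as turned, it means that the probe favoured 1 dye. Leaving out replicate 1, 2, 3 or 4 lowered the number of calls to 664, 1436, 1006 and 817. These fits tested fewer probes: 5355, 5545, 5436 and 5511. The 4 adult arrays fitted alone gave 804.

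DAC028K15 had the smallest p of all probes. Its log2 ratios were -2.16 and -2.18 with RNAi in Cy5 and 1.85 and 1.85 with RNAi in Cy3, a half-difference of -2.01 ± 0.116 (SE, n = 4, limma adjusted p = 1.38e-07). The pairs of like orientation were almost equal, and the mean over orientations was -0.16 ± 0.116. DAC004H05 had -1.43 and -1.07, and 1.06 and 1.03, a half-difference of -1.15 ± 0.105 (SE, n = 4, limma adjusted p = 4.31e-05). DAC006I16 had -1.09 and -0.95 with RNAi in Cy5 and 2.30 on the single array with RNAi in Cy3, which gave -1.66 ± 0.166 (SE, n = 3, limma adjusted p = 0.00019). In DAC028K15 and DAC004H05 the orientations lay on opposite sides of 0 at similar distance, while DAC006I16 was farther from 0 in the orientation with 1 array. DAC039D08 and DAC035L07 followed with half-differences of -0.92 and -0.86. Among probes whose sign followed the orientation on all 4 arrays, DAC009O03, DAC029D15 and DAC026B18 also stood far out, with half-differences of -1.97, -1.39 and -1.56. DAC009O03 had log2 ratios of -2.08 and -1.92 with RNAi in Cy5 and 1.47 and 2.40 with RNAi in Cy3, and DAC026B18 had -1.08 and -2.46, and 1.57 and 1.14. The orientations lay apart in both, as their choice by sign requires, with more spread between arrays of like orientation than in DAC028K15.

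Among positive half-differences, DAC011C23, described above, had the smallest p, and DAC002K24 was also called, at 1.71. The next by p were smaller: DAC031N23 had log2 ratios of 0.87 and 1.06 with RNAi in Cy5 and -0.80 and -0.94 with RNAi in Cy3, a half-difference of 0.92 ± 0.113 (SE, n = 4, limma adjusted p = 0.000815). DAC040O17 had 0.79 and 0.63, and -0.81 and -0.52, which gave 0.69 ± 0.0929 (SE, n = 4, limma adjusted p = 0.000815). DAC033G10 and DAC031N24 stood at 0.68 and 0.73. Signs followed the orientation in each of DAC031N23, DAC040O17, DAC033G10 and DAC031N24, but a small p of the half-difference favours this. They did so in 47.5% of the 5285 probes with 4 values. DAC023B04, DAC019K09, DAC015C21 and DAC027J09, named for following the orientation on all 4 arrays, had half-differences between 0.72 and 0.86. All 4 passed, but their choice by sign and size on the same arrays favours a call and adds no support. DAC019K09 missed the threshold without replicate 1, 3 or 4 (limma adjusted p = 0.057, 0.0578 and 0.0539).

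The adult half-difference resembled that of the other CNS experiments, in which other samples were compared. Of its 1836 calls, 1412 were tested at 0 h, 1534 in the sex and 1539 in the fru experiment, and 86.4%, 88.6% and 87.5% of them had the same sign there when each was coded as RNAi, female or mutant in Cy5. Over all probes tested in both, 73.8%, 75% and 73.1% had the same sign. The calls were larger in adults, with a median size of 0.522, 0.531 and 0.536 log2 units, against 0.278, 0.307 and 0.284 in the 0 h, sex and fru experiments; adult size chose them, so this is a description. Across probes the half-difference correlated with Pearson's r = 0.537 (4853 probes), 0.625 (5072) and 0.591 (5094) with the same 3 experiments. The orientation mean correlated with r = 0.345, -0.057 and 0.0358. The half-difference of DAC028K15 stood at -0.70 at 0 h, -0.68 in the sex and -0.53 in the fru experiment. That of DAC004H05 stood at -0.59 and -0.49 at 0 h and between the sexes, but at 0.01 in the fru experiment. On the 1 array of the 48 h RNAi experiment that was on the log2 scale, with RNAi in Cy5, DAC028K15 had -1.05. This is a single ratio and not a half-difference.

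Whether the adult half-difference departed from that at 0 h was tested directly. Among 4853 probes tested at both ages, the half-difference differed for 29 (0.598%) by limma, 12 higher and 17 lower in adults. With arrays centred and scaled to a common spread the count was 37, with 25 higher and 12 lower in adults. In 24 of the 29 the half-difference had opposite signs at the 2 ages, whereas 73.8% of all 4853 probes had the same sign. The 29 were chosen by their difference between ages, which favours opposite signs, so this is a description. The largest departures on the positive side again rested on single arrays: 11 of the 12 had no value on replicate 3 at 0 h, so that replicate 4 at 0 h was alone in its orientation and fitted exactly. Of the 17 on the negative side, 12 had all 8 values. So did 3877 of the 4853 probes tested, so this does not set the negative calls apart. How many of the 4853 lacked 0 h replicate 3 was not counted.

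DAC028K15 had the smallest p among the negative calls. Against its adult values above, its ratios at 0 h were -0.62 and -0.61 with RNAi in Cy5 and 1.09 and 0.48 with RNAi in Cy3, and its half-difference was lower in adults by -1.31 ± 0.164 (SE, n = 4 arrays per age, limma adjusted p = 0.00204). DAC037A18 had -1.07 and -0.33, and 1.38 and 2.01 in adults, against 0.58 and 0.77, and 0.35 and -0.05 at 0 h, a difference of -1.46 ± 0.213 (SE, n = 4 per age, limma adjusted p = 0.00675). DAC023N02 differed by -1.38 ± 0.231 (SE, n = 4 per age, limma adjusted p = 0.0137) and DAC040B01 by -0.84 ± 0.149 (SE, n = 4 per age, limma adjusted p = 0.0197). In DAC037A18, DAC023N02 and DAC040B01 the half-difference was negative in adults and positive at 0 h, while in DAC028K15 it was negative at both ages. DAC006I16, with 3 adult arrays, differed by -1.34 ± 0.215 (SE, limma adjusted p = 0.0137).

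On the positive side DAC002K24 differed by 3.44 ± 0.294 (SE, n = 3 per age, limma adjusted p = 0.00712), with single arrays deciding both ages, as given above. DAC034O09 had 1.62 and 0.05, and -0.41 and -0.66 in adults, against 0.05 and 0.23, and 3.22 on 1 array at 0 h, and DAC014P04 had 2.45 on that array. DAC010L01 had -0.73, and 0.72 and 0.58 in adults, against -0.51 and -0.22, and 5.09 on that array at 0 h; its half-difference was negative at both ages, -0.69 in adults and -2.73 at 0 h. DAC010L01 was also the 1 probe of 4853 (0.0206%) whose orientation mean differed, at -0.04 in adults and 2.37 at 0 h (difference -2.41 ± 0.194, SE, n = 3 per age, limma adjusted p = 6.79e-05). On the positive side of that comparison, where 0 probes passed in limma and 55 had an unadjusted p under 0.05, DAC041G11 had the smallest p, with a difference of 1.25 ± 0.281 (SE, limma adjusted p = 0.675).

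Replicates weighed heavily on these differences. Without adult replicates 1, 2, 3 and 4 the half-difference count was 19, 70, 7 and 6, and without 0 h replicates 1, 2, 3 and 4 it was 1, 1, 92 and 1. DAC028K15 kept its call in all 8 of these fits, with differences between -1.46 and -1.16. DAC037A18, DAC006I16, DAC023N02 and DAC040B01 each lost theirs without 0 h replicate 1, 2 or 4, with limma adjusted p between 0.0525 and 0.155, and DAC023N02 and DAC040B01 also without adult replicate 4 (0.0668 and 0.0782). With the 8 RNAi arrays fitted without the sex and fru arrays, however, 0 probes passed, while 501 had an unadjusted limma p under 0.05, and DAC028K15 stood at an adjusted p of 0.1 by limma. DAC010L01 stood there at 0.101 for the orientation mean.

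The values also varied with the position of a probe on its plate. With rows grouped by a repeat of 4, median log2 ratios of rows A, E, I and M were 0.0329, 0.114, 0.238 and -0.197 on replicates 1 to 4, while those of rows D, H, L and P were -0.0548, -0.18, -0.0683 and 0.272. These 2 groups of rows thus differed in opposite ways on replicates 3 and 4. The half-difference was called positive for 6.6% and negative for 21.4% of the 1379 probes in rows D, H, L and P, against 20.8% and 13.7% of the 1632 in rows C, G, K and O. With columns grouped by a repeat of 12, the 48 position classes had median half-differences between -0.233 and 0.235 and median orientation means between -0.124 and 0.13. At single wells, medians over plates spanned -0.55 to 0.38 for the half-difference and -0.17 to 0.17 for the mean. Position class accounted for 5.95% of the variance of the half-difference and 11.7% of that of the orientation mean. Class medians on plates 2 to 21 correlated with those on plates 22 to 41 at r = 0.517 for the half-difference and 0.764 for the mean over the 48 classes. Between adults and 0 h, class medians of the half-difference correlated at r = 0.743, so the position pattern was not particular to the adult arrays. How far position enters the likeness of the half-difference between experiments was not tested. Centred within these classes, the orientation mean passed for 4 probes, including all 3 above, and the half-difference for 2087, including 1578 of the 1836. The printing layout of the arrays is not given in the sources used here, and its part in these values was not tested.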

How the data were processed

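The authors deposited 1 table of 15744 probes and 32 control spots, which were left out. The values were made with limma, per the submitters' processing notes. Neither a version nor the background correction, the normalization or the direction of the ratios is stated in the sources used here. By their range, the deposited values were taken as log2 ratios on 27 arrays. Adult replicate 1, with an SD of 0.689, had a lowest value of -11.6 over all probes and -2.69 among the included ones. The authors' deposited values on 3 arrays of the 48 h RNAi experiment have a far wider spread and were left out of every test as a score whose scale is unknown. Per the labels' protocols, RNA was amplified and labelled as cRNA.

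Two-sided tests were made with lmFit and eBayes of limma 3.58.1 (R 4.3.3), and p-values were adjusted by Benjamini-Hochberg over all probes tested, with a threshold of 0.05. All probes of the 18 CNS arrays on the log2 scale entered 1 fit with a mean and a dye coefficient per experiment; the 14 other arrays lend their estimate of the spread. The fit was tested on simulated data with noise drawn independently for each value. This does not bear on noise shared by plate position or on calls that rest on 1 outlying array. Spot intensities were not used, so signal over background is unknown, and the number of arrays limits the precision. Probes and lists were chosen with earlier results of these data known. Named are, per comparison and sign, the 5 called probes with the smallest p (with no call, the 1 with the smallest p), and the 5 farthest from 0 on every array among those of 1 sign and among those whose sign followed the dye. The planned lists of ecdysone, sex hierarchy and cell type genes could not be used without gene names. Alternatives concerned the arrays fitted, missing values, normalization, moderation and single replicates.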

Additional observations from a re-analysis of the deposited data

Results flagged for a closer look

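On the 4 adult arrays, the highest value of any included probe stood far from the others on replicate 1, at 4.36, and DAC028G05 had -0.451 on replicate 1, apart from its other 3 values. The gap rule used for 4 samples marks about 1 in 20 groups by chance.

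Several probes differed between adults and 0 h by a limma test of the difference itself. For the half-difference these were, on the positive side, DAC002K24 (3.44), DAC034O09 (2.23), DAC002J17 (2.20), DAC010L01 (2.04) and DAC014P04 (1.63), all of which rested on a single 0 h array in 1 dye orientation. On the negative side they were DAC037A18 (-1.46), DAC023N02 (-1.38), DAC006I16 (-1.34), DAC028K15 (-1.31) and DAC040B01 (-0.843). For the orientation mean DAC010L01 differed by -2.41. All values are adult minus 0 h in log2 units.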

How the results depend on the processing

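The orientation mean passed for 0 probes with the 8 RNAi arrays fitted together (150 at an unadjusted p under 0.05 by limma), 0 with a value on all 4 arrays (167), 0 without a dye coefficient (73), 1 with arrays centred and scaled, 6 with at least 1 value in each orientation, and between 0 and 22 with 1 replicate left out. The half-difference passed for 804 probes with the adult arrays alone and between 664 and 1436 with 1 replicate left out; the other 8 alternatives for it gave counts within 1.5 times 1836. The adult minus 0 h mean passed for 0 probes with the 8 RNAi arrays (96 at an unadjusted p under 0.05 by limma), 0 with all values present (82), 3 with arrays centred and scaled, and between 0 and 5 with 1 replicate of either age left out. The adult minus 0 h half-difference passed for 0 with the 8 RNAi arrays (501), 4 with all values present, 69 when centred within plate position classes, and between 1 and 92 with 1 replicate left out. Fits that require all values or leave out a replicate test fewer probes; otherwise the cause was not tested. No named probe changed sign in any alternative. Over the alternatives that could test them, named probes with a call lost it in 10 of 30 values for the orientation mean (3 probes), 3 of 213 for the half-difference (17 probes), 1 of 5 for the adult minus 0 h mean (1 probe) and 24 of 87 for the adult minus 0 h half-difference (10 probes). Centring within position classes, moderation over adult probes and leaving out 0 h replicates were chosen after seeing the data. No paired analysis was possible because each array already sets an RNAi sample against a control sample and replicate numbers link no samples between experiments.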

Other observations

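Wells of the same plate that lay 12 columns apart had half-differences correlated at r = 0.178 (1320 pairs) and orientation means at r = 0.254. Wells 1 column apart had r = 0.0625 and 0.151 (2425 pairs) and wells 2 columns apart r = 0.102 and 0.135 (2618 pairs). Wells 4 rows apart had r = 0.0753 and 0.233 (1989 pairs), and wells 1 row apart r = -0.00518 and 0.0237 (2315 pairs). These are correlations across pairs of probes, which are not independent. DAC031N23 and DAC031N24, both called with a positive half-difference, are neighbouring wells, 1 column apart; this was noticed after their values were seen.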
